A study of Mus musculus with 18 samples.

Results

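The 43 genes described here encode the enzymes, carriers and assembly factors of fatty acid oxidation and of the peroxisome, and they were taken by gene name from a deposited table of 54532 mouse genes. All 43 were found and all 43 passed the filter on low counts. They were grouped by role into the carnitine shuttle (4 genes), the mitochondrial acyl-CoA dehydrogenases (4), the later steps of the mitochondrial spiral (5), auxiliary enzymes for unsaturated chains (3), electron transfer to ubiquinone (3), peroxisomal oxidation enzymes (6), peroxisomal fatty acid transporters (2), peroxins (12), the peroxisomal enzymes catalase and epoxide hydrolase (2) and regulators of mitochondrial fuel use (2).

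Bulk RNA sequencing was run on 10T1/2 cells, a mouse embryonic mesenchymal line that can be driven toward adipocytes or myofibroblasts, labelled by the submitters as mesenchymal stem cells. The lines compared were WT and the FOXS1 KO clones 1 and 2, each clone grown from 1 edited cell after transfection with CRISPR-Cas9 and paired guide RNAs against the Foxs1 exon. Each line was sampled uninduced (control) and after 1 nM TGF-β1 for 12 h followed by 48 h in DMII, a medium with insulin, indomethacin, dexamethasone and 3-isobutyl-1-methylxanthine, here called stimulated. Each of the 6 groups held 3 libraries, all from unsorted cultures of the same line. Since TGF-β1 and DMII were given together as 1 sequence, their shares in any response cannot be told apart, and neither can the loss of FOXS1 and the history of a single cell within either clone.

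Long-chain fatty acids enter mitochondria as carnitine esters, are shortened in a repeating spiral of dehydrogenation, hydration, a further dehydrogenation and thiolysis, and pass their electrons through the electron transfer flavoprotein to ubiquinone. Peroxisomes shorten very long and branched chains by a related spiral that makes hydrogen peroxide, which catalase removes, and peroxins import their matrix proteins and insert their membrane proteins. In the adipocyte lineage both organelles multiply during differentiation, and nuclear receptors of the PPAR family are known to act on many of these genes.

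Library totals ranged from 15576685 to 42005596 counts. Levels are given as CPM (a gene's share of the library's counts) after TMM scaling of library sizes, and a gene was called changed when its Benjamini-Hochberg adjusted p over all 14317 tested genes, from edgeR's quasi-likelihood test on a model of all 6 groups, was below 0.05 and its absolute log2 fold change exceeded 1. The labels do not say whether the 3 libraries of a group came from separate cultures, so p-values measure the spread between these libraries, which may be technical. Foxs1 was counted at 1.64 to 3.25 CPM in the 6 WT libraries, at 23.4 to 56.8 CPM in the 6 libraries labelled clone 1 and at 21.1 to 42.8 CPM in those labelled clone 2. A count over the whole gene does not show whether its coding sequence was disrupted, so it does not check the KO labels. The 7 fibroblast markers were all detected in all 18 libraries, although Thy1 averaged 0.616 CPM (uninduced) and 0.342 CPM (stimulated) in clone 2 against 49.0 to 184 CPM in the other 4 groups. One library stood apart: uninduced clone 1 replicate 3 held all 4 hepatocyte markers, summing to 75.0 CPM, against at most 0.654 CPM in each of the other 17 libraries. Calls that rest on it are given with and without it. Summed markers of other cell types stayed low, at no more than 7.07 CPM per library for macrophages, 7.92 for endothelium, 3.28 for epithelium and 0.133 for skeletal muscle.

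Promoter sequence is shown for Cat and Acadm, the most abundant members called higher in a clone than in WT, and for Cpt1a, the gate of the carnitine shuttle, because PPAR and retinoid X receptors bind repeats of the motif AGGTCA. Each line is the 250 bases before the RefSeq transcription start on GRCm38.p6, read 5′ to 3′ on the strand of the gene, for Cat at chr2:103485154-103485403 (minus strand), for Acadm at chr3:153944644-153944893 (minus strand) and for Cpt1a at chr19:3323051-3323300 (plus strand). Capitals mark AGGTCA on either strand and, in Cat, the whole stretch that matched a direct repeat of it.
Cat: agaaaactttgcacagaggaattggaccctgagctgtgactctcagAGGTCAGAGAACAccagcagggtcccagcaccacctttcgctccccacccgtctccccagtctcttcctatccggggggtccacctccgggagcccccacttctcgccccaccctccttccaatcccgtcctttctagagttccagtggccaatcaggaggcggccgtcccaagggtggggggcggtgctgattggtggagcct
Acadm: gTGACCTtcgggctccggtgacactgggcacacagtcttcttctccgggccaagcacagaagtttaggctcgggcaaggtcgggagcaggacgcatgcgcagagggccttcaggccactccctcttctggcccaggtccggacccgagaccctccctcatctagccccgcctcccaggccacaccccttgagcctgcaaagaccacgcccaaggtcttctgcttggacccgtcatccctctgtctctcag
Cpt1a: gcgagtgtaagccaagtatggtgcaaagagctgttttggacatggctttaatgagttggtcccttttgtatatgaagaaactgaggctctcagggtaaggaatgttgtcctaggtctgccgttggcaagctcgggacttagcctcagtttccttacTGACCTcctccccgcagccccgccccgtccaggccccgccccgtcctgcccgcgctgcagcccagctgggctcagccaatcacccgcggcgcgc
The Cat stretch lies 204 to 192 bases before the start and differs at 2 of 12 fixed bases from a direct repeat of AGGTCA with a 1-base spacer (DR1). RefSeq windows were matched for 35 of the 43 members, 39 windows in all. A DR1 with at most 2 mismatches, on either strand, was present in 3 of these 39 windows (Cat, Echs1 and Etfa; 7.69%) and in 3.24% of all 32851 windows. The single motif AGGTCA, which a DR1 may contain, was present in 6 member windows (15.4%) and in 14.0% of all. The other motifs searched on both strands were TAAACA, the core bound by forkhead factors (7.69% of member windows against 12.0% of all), AGAACA, part of the glucocorticoid receptor element (12.8% against 16.1%), and CAGACA, a variant of the SMAD box (23.1% against 17.1%). A match is a description of sequence only.

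Most of the 43 genes were expressed at moderate levels in every group. The mean was at or above 10 CPM in all 6 groups for 33 members, below 10 CPM in all 6 groups for 6 (Abcd2, Ehhadh, Ephx2, Pex10, Pex11a and Ucp2) and on both sides of 10 CPM for the other 4 (Etfb, Pdk4, Pex26 and Phyh). Per kilobase of gene length, the level in uninduced WT cells was highest for Cat, at 113 ± 3.81 CPM per kilobase (SD, n = 3), followed by Acaa2 at 87.9 ± 2.16, and lowest for Ephx2 at 0.0326. In stimulated WT cells Pdk4 led with 264 CPM per kilobase. Stimulated clone 2 was also led by Pdk4, at 142 CPM per kilobase, whereas stimulated clone 1 was led by Cat, at 199.9 ± 8.30, ahead of Scp2 at 118 ± 2.00. For most members the deposited length equals that of all annotated exons together. Since this can exceed the length of a single transcript, ranks between genes are approximate.

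**Figure D1:**
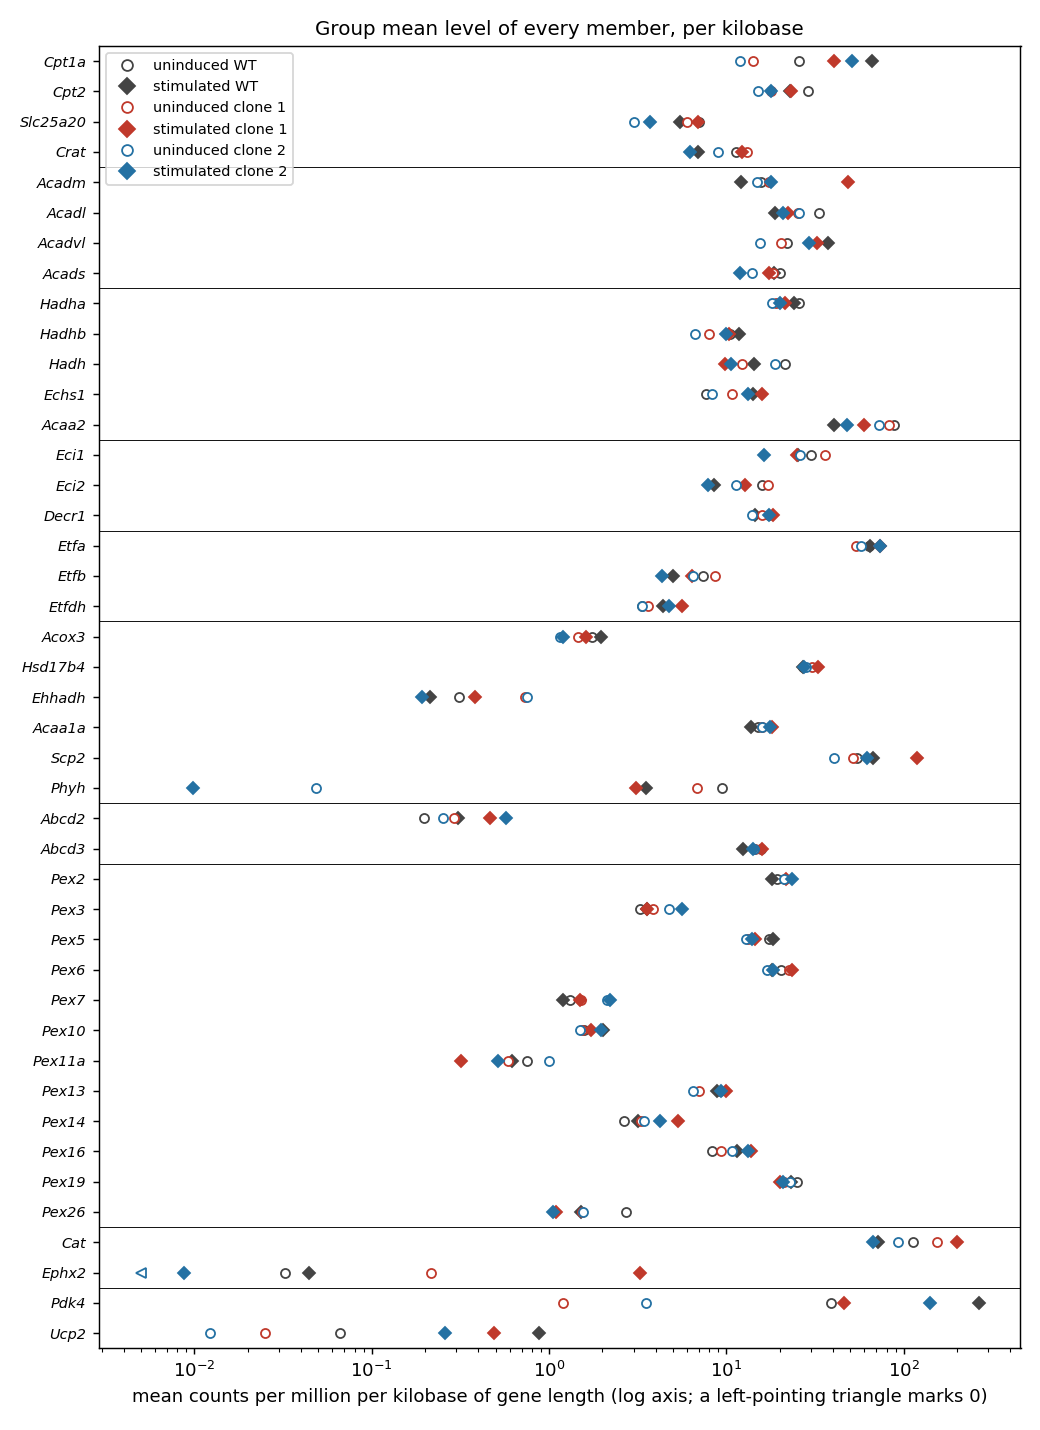
Group mean level of each of the 43 genes in CPM per kilobase of gene length on a log axis, with open circles for uninduced and filled diamonds for stimulated cells of WT (grey), clone 1 (red) and clone 2 (blue), and horizontal lines between roles; a left-pointing triangle marks a mean of 0. Most genes keep their 6 groups close together, while Pdk4, Ucp2, Phyh and Ephx2 spread their groups widely.

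Few members passed both thresholds in any comparison of a clone with WT. In uninduced cells 3 of 43 members were called in clone 1 (1 higher, 2 lower), against 6.32% of all tested genes called higher and 8.73% lower, and 6 in clone 2 (1 higher, 5 lower), against 5.54% and 9.56%. In stimulated cells 4 members were called in clone 1 (3 higher, 1 lower), against 9.42% and 9.60%, and 2 in clone 2 (0 higher, 2 lower), against 7.95% and 8.94%. Both clones are compared with the same WT libraries, so their results are not independent. The members called were Pdk4, Ucp2, Ehhadh, Cpt1a, Slc25a20, Phyh, Acadm, Cat and Ephx2. In bulk RNA, fewer cells of a type and less RNA per cell cannot be told apart, which touches each of these results.

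Smaller differences were more common. By adjusted p alone, 6 members were higher and 15 lower in uninduced clone 1 (median log2 fold change -0.08), against 26.3% higher and 27.2% lower of all genes. In uninduced clone 2, 5 members were higher and 25 lower (median -0.27), against 26.3% and 26.9%, so that 58.1% of the members were lower. In stimulated clone 1 the balance lay the other way, with 20 higher and 11 lower (median 0.25) against 28.4% and 30.5%. In stimulated clone 2, 11 were higher and 17 lower (median -0.12) against 27.7% and 28.3%. The medians over all tested genes lay between -0.02 and -0.01 in these 4 comparisons.

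**Figure D2:**
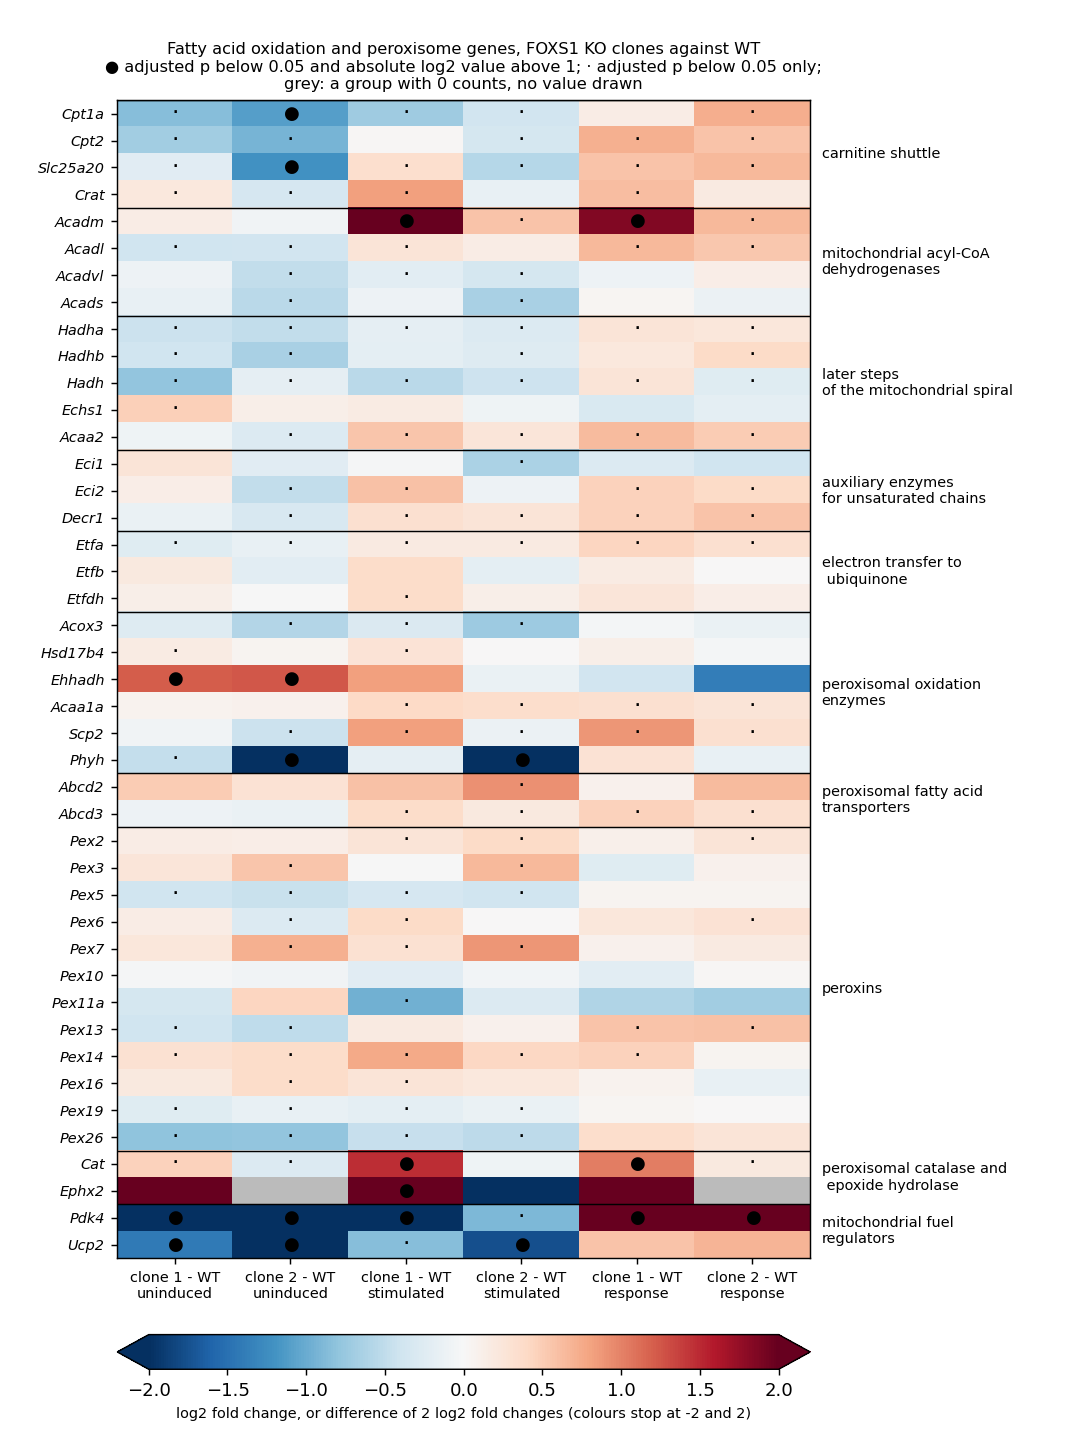
Log2 fold changes of the 43 genes by role in each clone relative to WT, and the difference between each clone's response to stimulation and that of WT, with colours that stop at -2 and 2. Large dots mark adjusted p below 0.05 with an absolute value above 1, small dots adjusted p below 0.05 only, and grey a group with 0 counts; the 2 right-hand columns are mostly red, with 18 and 19 members significantly above 0.

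Pdk4 and Ucp2, the regulators of mitochondrial fuel use, were lower in both clones and rose with stimulation in all 3 lines. Pdk4 (ENSMUSG00000019577, chr6:5483351-5496309, minus strand, GRCm38) encodes the kinase that inactivates the pyruvate dehydrogenase complex and so spares glucose when fatty acids are burned. Its level in WT was 129.9, 139 and 141 CPM uninduced and 936, 912 and 938 CPM stimulated. In clone 1 it was 3.94, 4.34 and 4.35 CPM uninduced and 153, 163 and 172 CPM stimulated. In clone 2 it was 13.2, 10.4 and 13.5 CPM uninduced and 478, 483 and 529 CPM stimulated. Within each treatment the 3 lines did not overlap, with WT highest and clone 1 lowest. The log2 fold change from WT was -5.02 ± 0.09 (SE, n = 3 libraries a group, adjusted p = 7.34e-28) in uninduced clone 1 and -3.46 ± 0.07 (adjusted p = 5.65e-26) in uninduced clone 2. After stimulation it was -2.51 ± 0.06 in clone 1, which was called, and -0.90 ± 0.06 in clone 2, which passed on adjusted p (2.33e-14) but not on size. Pdk4 was also called lower in clone 1 than in clone 2, by a log2 value of -1.56 ± 0.10 uninduced and -1.61 ± 0.06 stimulated. Its only tested neighbour within 100 kb, Asb4, averaged 0.523 CPM and was also called lower in uninduced clone 1 (-2.47), with uncalled values of -1.29 in uninduced clone 2 and -0.35 and -0.31 in stimulated clones 1 and 2.

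Ucp2 (ENSMUSG00000033685, chr7:100493337-100502020, plus strand) encodes a carrier of the mitochondrial inner membrane. It was counted at 0.233, 0.629 and 0.534 CPM in uninduced WT and at 5.82, 6.18 and 6.45 CPM in stimulated WT cells. Clone 1 gave 0.154, 0.215 and 0.155 CPM, then 3.57, 3.06 and 3.64 CPM. Clone 2 gave 0.0669, 0.133 and 0.0580 CPM, then 1.74, 1.90 and 1.80 CPM. The stimulated libraries of the 3 lines did not overlap, in the order WT, clone 1, clone 2. The uninduced values rest on 30, 10 and 7 counts per group. After stimulation Ucp2 differed from WT by a log2 value of -1.76 ± 0.28 (adjusted p = 2.61e-06) in clone 2, which was called, and -0.85 ± 0.25 (adjusted p = 0.00527) in clone 1. In uninduced cells it was -2.43 ± 0.53 in clone 2 and -1.42 ± 0.50 (adjusted p = 0.0147) in clone 1, a call that was lost without uninduced WT replicate 2 (adjusted p = 0.062).

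**Figure D3:**
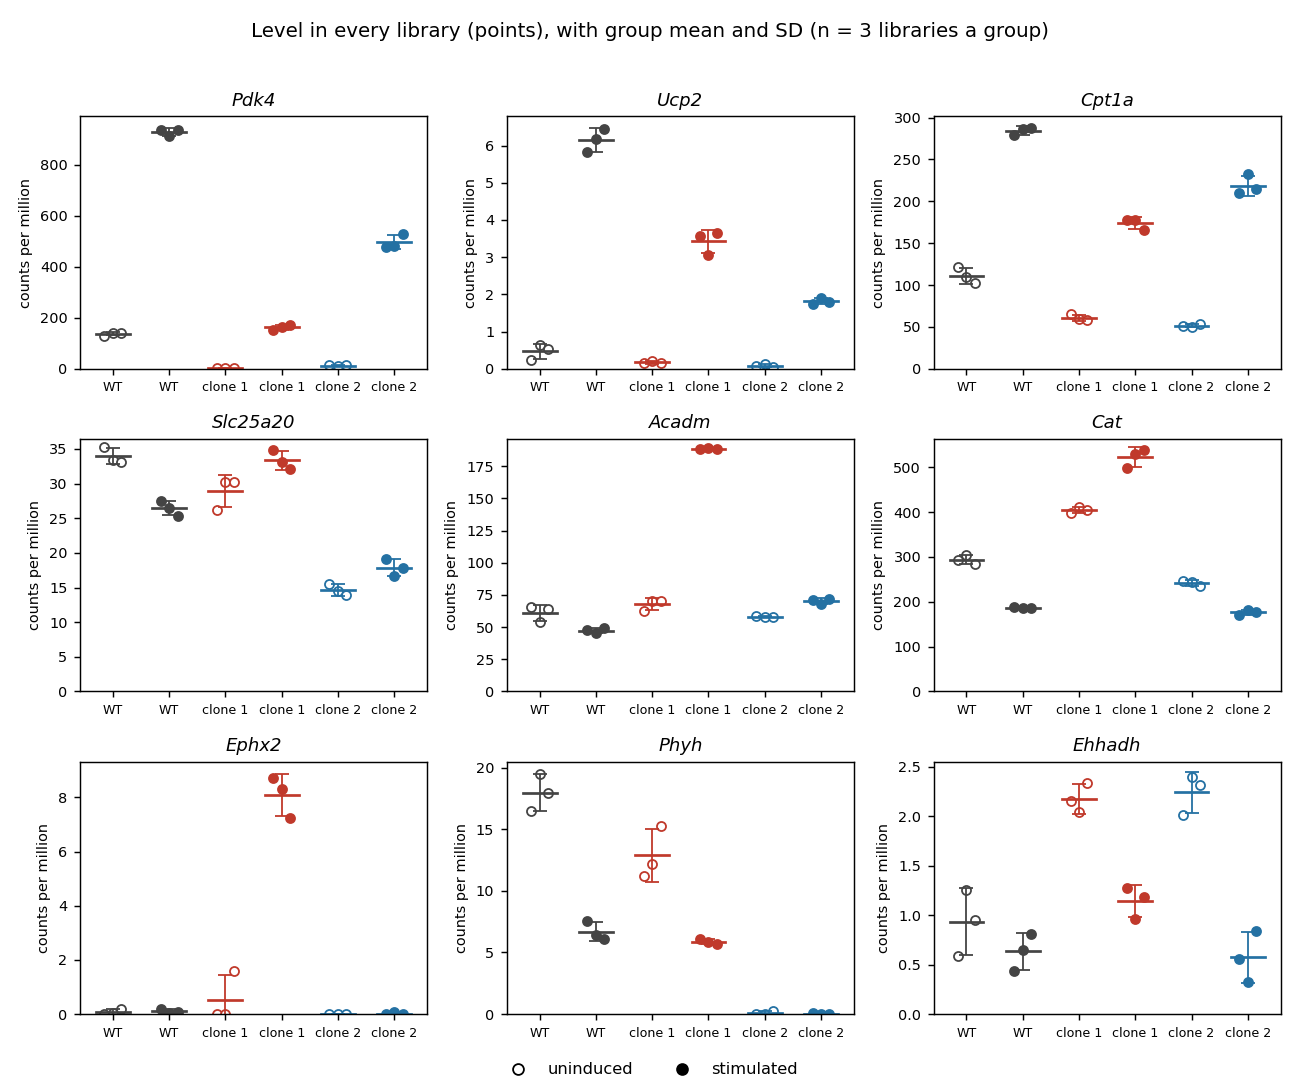
Level in CPM of the 9 members called in a clone relative to WT, one panel each from 0, with a point per library (open uninduced, filled stimulated), a bar for the group mean and a whisker for the SD (n = 3). Pdk4, Ucp2 and Cpt1a rise with stimulation in all 3 lines from lower levels in the clones, Acadm, Cat and Ephx2 stand high in stimulated clone 1, and Phyh is near 0 in clone 2.

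Cpt1a and Slc25a20 of the carnitine shuttle were called lower in uninduced clone 2. Cpt1a (ENSMUSG00000024900, chr19:3323301-3385732, plus strand) makes long-chain acylcarnitines at the outer membrane, the gate of the pathway. Its level in WT was 121, 110.1 and 102 CPM uninduced and 279, 287 and 288 CPM stimulated. In clone 1 it was 65.1, 59.8 and 58.6 CPM, then 178, 178 and 165 CPM. In clone 2 it was 50.8, 50.4 and 53.2 CPM, then 209.7, 232 and 214 CPM. Every clone library lay below every WT library of its treatment, and stimulated clone 2 lay above stimulated clone 1. The log2 fold change from WT was -0.86 ± 0.06 (adjusted p = 3.63e-13) in uninduced clone 1 and -1.11 ± 0.06 (adjusted p = 8.09e-16) in uninduced clone 2. After stimulation the values were -0.71 ± 0.06 and -0.38 ± 0.06, both with adjusted p below 0.05 and neither past the fold threshold.

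Slc25a20 (ENSMUSG00000032602, chr9:108662088-108684641, plus strand) carries acylcarnitines across the inner membrane in exchange for carnitine. WT libraries held 35.4, 33.4 and 33.1 CPM uninduced and 27.5, 26.5 and 25.4 CPM stimulated. Clone 1 libraries held 26.2, 30.3 and 30.2 CPM, then 34.9, 33.1 and 32.1 CPM. Clone 2 libraries held 15.5, 14.5 and 13.9 CPM, then 19.1, 16.7 and 17.9 CPM. All 6 clone 2 libraries lay below all WT and clone 1 libraries. The log2 fold change in clone 2 was -1.21 ± 0.09 (adjusted p = 5.81e-13) uninduced and -0.56 ± 0.09 stimulated. In clone 1 it was -0.23 ± 0.08 uninduced and 0.33 ± 0.08 (adjusted p = 0.000954) stimulated. Of the other shuttle genes, Cpt2, which returns acylcarnitines to CoA esters, was lower by adjusted p alone in both uninduced clones (-0.69 ± 0.07 and -0.92 ± 0.07). Cpt2 lies on chromosome 4, whose 633 genes had medians of -0.22 and -0.23 in uninduced clones 1 and 2. In stimulated clone 2, 3 of the 4 shuttle genes (Cpt1a, Cpt2 and Slc25a20) were lower by adjusted p alone. Crat, the carnitine acetyltransferase, was higher in stimulated clone 1 (0.82 ± 0.07, adjusted p = 5.83e-12) and gave -0.16 ± 0.07 (adjusted p = 0.0564) in stimulated clone 2. In uninduced cells Crat was higher in clone 1 (0.21) and lower in clone 2 (-0.33), both by adjusted p alone.

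Among the acyl-CoA dehydrogenases, Acadm alone was called. Acadm (ENSMUSG00000062908, chr3:153922357-153944632, minus strand) opens the spiral for medium-length chains. It was at 65.5, 53.9 and 64.3 CPM in uninduced WT and at 47.6, 45.0 and 49.0 CPM in stimulated WT cells. Clone 1 went from 62.3, 70.2 and 70.7 CPM to 188, 189 and 189 CPM. Clone 2 went from 58.3, 57.8 and 58.0 CPM to 70.8, 67.9 and 72.2 CPM. The uninduced lines overlapped, whereas in stimulated cells every clone library lay above every WT library and clone 1 stood far above clone 2. The log2 fold change from stimulated WT was 2.00 ± 0.06 (adjusted p = 1.7e-21) in clone 1, a 3.99-fold difference, and 0.57 ± 0.07 (adjusted p = 1.09e-08) in clone 2. Stimulated clone 1 exceeded stimulated clone 2 by 1.42 ± 0.06 on the log2 scale (adjusted p = 2.47e-17). Its only tested neighbour within 100 kb, Rabggtb, gave -0.12 in stimulated clone 1.

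The other dehydrogenases differed from WT by less. Acadl, for long chains, was lower in both uninduced clones (-0.39 ± 0.07 and -0.38 ± 0.07), at 51.0 and 51.5 CPM against 67.1 in WT, and after stimulation it gave 0.25 ± 0.07 in stimulated clone 1 (adjusted p = 0.00391) and 0.15 ± 0.07 in clone 2. Acadvl, for very long chains, was lower in uninduced clone 2 (-0.49 ± 0.07), stimulated clone 1 (-0.20 ± 0.06) and stimulated clone 2 (-0.35 ± 0.06) by adjusted p alone, but Dvl2 exons on the other strand cover 42.9% of its exonic length, and the strand setting of the counts is not given in the sources used here. Acads, for short chains, was lower in clone 2 (-0.53 ± 0.09 uninduced, -0.65 ± 0.09 stimulated), with -0.14 ± 0.09 and -0.11 ± 0.09 in clone 1. None of these 3 passed both thresholds.

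In the later steps of the mitochondrial spiral no member was called in a clone relative to WT. Hadha and Hadhb, the subunits of the trifunctional protein, were lower in both uninduced clones by adjusted p alone, Hadha by -0.43 ± 0.05 and -0.50 ± 0.05 and Hadhb by -0.39 ± 0.09 and -0.64 ± 0.09. Both lie on chromosome 5, whose 639 genes had medians of -0.18 and -0.16 in uninduced clones 1 and 2. Of 6 tested genes within 100 kb of Hadhb, 3 were called lower in uninduced clone 1 and 1 in uninduced clone 2. Hadh, the 3-hydroxyacyl-CoA dehydrogenase for shorter chains, was lower in all 4 comparisons by adjusted p alone, most in uninduced clone 1 (-0.80 ± 0.06) and least in uninduced clone 2 (-0.17 ± 0.06). Acaa2, the mitochondrial thiolase, was higher in both stimulated clones (0.55 ± 0.05 and 0.24 ± 0.05) and lower in uninduced clone 2 (-0.27 ± 0.05). Echs1, the short-chain enoyl-CoA hydratase, was higher in uninduced clone 1 (0.48 ± 0.09) and gave values from -0.09 to 0.17 in the other 3 comparisons with WT. By adjusted p alone, 2 of these 5 genes were lower and 1 higher in stimulated clone 1. In stimulated clone 2, 3 were lower (Hadh, Hadha and Hadhb) and 1 higher.

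The auxiliary and electron transfer genes moved by less than a log2 value of 1 throughout. Of the enzymes that prepare unsaturated chains, Eci2 was higher in stimulated clone 1 (0.59 ± 0.07), Decr1 was higher in both stimulated clones (0.33 ± 0.07 and 0.25 ± 0.07), and Eci1 was lower in stimulated clone 2 (-0.63 ± 0.18). In uninduced clone 2 Eci2 (-0.49 ± 0.07) and Decr1 (-0.32 ± 0.07) were lower. Etfa, a subunit of the electron transfer flavoprotein, went from -0.24 ± 0.06 in uninduced to 0.19 ± 0.05 in stimulated clone 1. Etfdh, which passes the electrons on to ubiquinone, was higher in stimulated clone 1 (0.36 ± 0.09). Etfb, the other flavoprotein subunit, passed in no comparison of a clone with WT, and genes on the same strand cover 58.2% of its exonic length, so its counts are uncertain.

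In the peroxisome, Cat and Ephx2 were called higher in stimulated clone 1 and in no comparison of clone 2 with WT. Cat (ENSMUSG00000027187, chr2:103453849-103485160, minus strand) encodes catalase, which breaks down hydrogen peroxide. Its level in WT was 293, 304 and 285 CPM uninduced and 189, 186 and 186 CPM stimulated. In clone 1 it was 397, 411 and 404 CPM, then 498, 530.4 and 539 CPM. In clone 2 it was 247, 244 and 235 CPM, then 170.4, 182 and 177 CPM. Clone 1 lay above both other lines in either treatment, and its level was higher after stimulation where theirs was lower. The log2 fold change from WT was 0.46 ± 0.04 (adjusted p = 3.04e-10) uninduced and 1.48 ± 0.04 (adjusted p = 2.53e-22) stimulated in clone 1, and -0.28 ± 0.04 and -0.08 ± 0.04 in clone 2. All 3 tested genes within 100 kb of Cat were also called higher in stimulated clone 1, namely Abtb2 (mean 110.2 CPM), which gave 1.41 in clone 1 and 1.14 in clone 2 on the log2 scale, and the scarce BC016548 and A930006I01Rik (means 0.370 and 0.219 CPM).

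Ephx2 (ENSMUSG00000022040, chr14:66084374-66124500, minus strand) encodes the soluble epoxide hydrolase, which opens fatty acid epoxides. WT libraries held 0, 0.0524 and 0.191 CPM uninduced and 0.196, 0.0432 and 0.0902 CPM stimulated. Clone 1 libraries held 0, 0 and 1.61 CPM, then 8.73, 8.30 and 7.24 CPM. Clone 2 libraries held 0, 0 and 0 CPM, then 0, 0.0654 and 0 CPM. In counts, stimulated clone 1 held 548 and stimulated WT 7, a ratio of 75.9 after scaling (95% exact interval 36.6 to 189.6, covering counting error only). The log2 fold change was 6.17 ± 1.04 (adjusted p = 0.000131). All 31 counts of uninduced clone 1 came from replicate 3, the library with hepatocyte markers at 75.0 CPM. The response of clone 1 to stimulation was 3.90 ± 0.84 with that library (adjusted p = 0.00123) and 10.45 without it, a fitted value against groups with no count that is no bound. Its response in clone 1 differed from that in WT by 3.72 ± 2.13 (adjusted p = 0.216) with the library, a difference that was called without it (adjusted p = 6.25e-05). The difference between uninduced clone 1 and clone 2 was called (adjusted p = 0.0208) with it and was 0 without it. Relative to uninduced WT, uninduced clone 1 gave an uncalled log2 value of 2.44. That difference was called when replicate 1 (3.03, adjusted p = 0.0227) or replicate 2 (3.01, adjusted p = 0.0260) of uninduced clone 1 was left out. The part of replicate 3 in the uninduced values was not tested further, and in stimulated clone 1 the hepatocyte markers summed to at most 0.213 CPM.

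**Figure D4:**
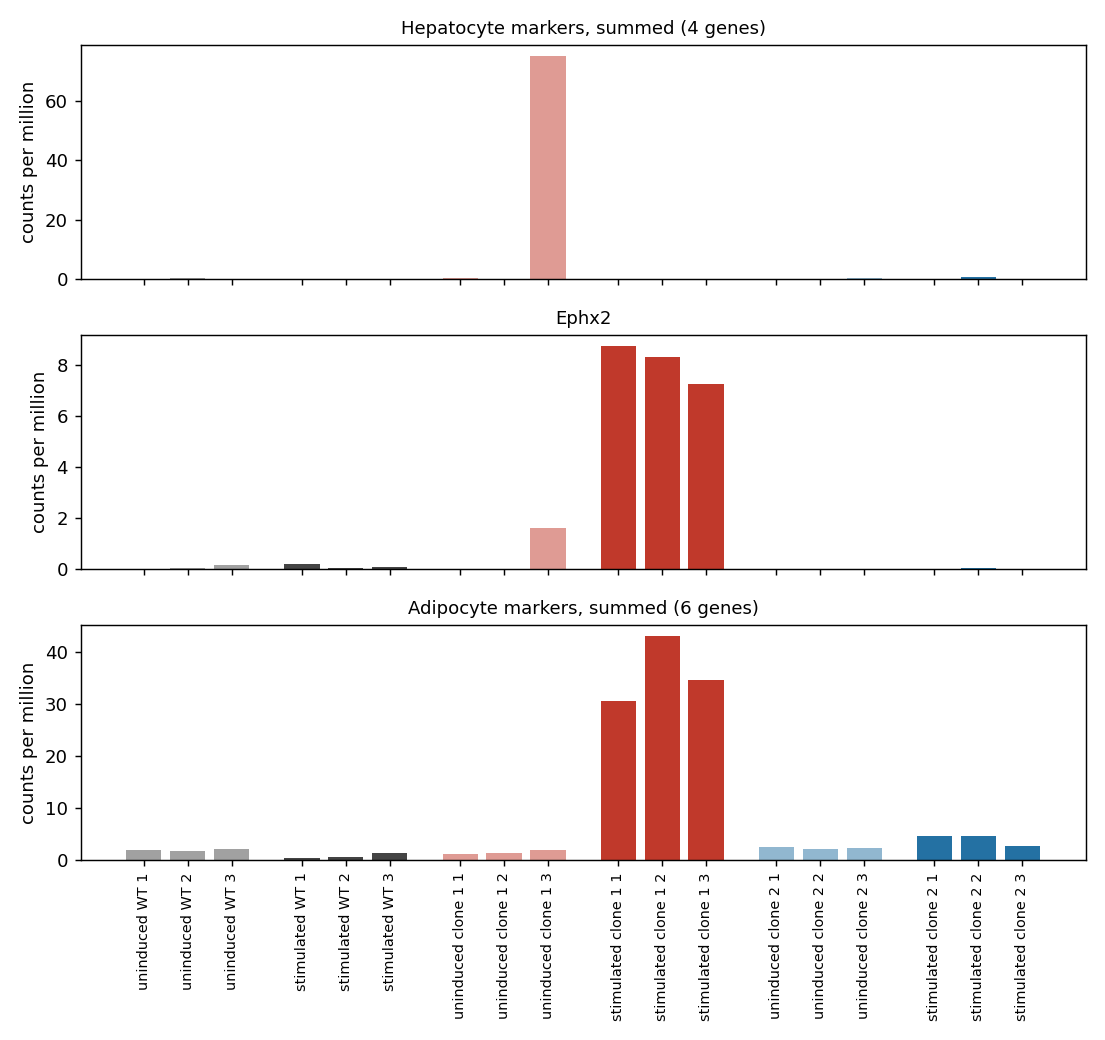
Summed hepatocyte markers (4 genes), Ephx2 and summed adipocyte markers (6 genes) in each of the 18 libraries in CPM, as bars from 0 coloured by line and paler for uninduced cells. The hepatocyte markers reach 75.0 CPM in 1 uninduced clone 1 library, the uninduced library with most Ephx2 (1.61 CPM), and the adipocyte markers reach 30.5 to 43.0 CPM in stimulated clone 1.

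Adipocyte markers moved with the stimulated clone 1 results. Their sum over 6 genes ran from 30.5 to 43.0 CPM in stimulated clone 1, where 4 of the 6 were detected in each library, from 2.71 to 4.64 CPM in stimulated clone 2, from 0.293 to 1.22 CPM in stimulated WT and from 1.18 to 2.39 CPM in the uninduced groups. Fabp4, Plin1 and Cidec carried the rise, at means of 20.4, 7.78 and 7.56 CPM, while Adipoq was at 0.207 CPM in stimulated clone 1, Cfd was at 0 in stimulated clone 1 and Lep at 0 in all 18 libraries. The part of a change toward adipocytes in the higher Acadm, Cat and Ephx2 of clone 1 was not tested.

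Phyh and Ehhadh stood out among the peroxisomal oxidation enzymes. Phyh (ENSMUSG00000026664, chr2:4919019-4938730, plus strand) encodes phytanoyl-CoA hydroxylase, the first enzyme of the alpha-oxidation of branched chains. WT libraries held 16.5, 19.5 and 17.9 CPM uninduced and 7.53, 6.44 and 6.09 CPM stimulated. Clone 1 libraries held 11.2, 12.2 and 15.3 CPM, then 6.07, 5.86 and 5.69 CPM. Clone 2 libraries held 0.0446, 0 and 0.232 CPM, then 0.0560, 0 and 0 CPM. The highest uninduced clone 1 value was that of the library with hepatocyte markers. Phyh was almost without reads in clone 2, with 6 counts uninduced and 1 stimulated against 1125 and 438 in WT. The scaled ratio of WT to clone 2 was 254 (95% exact interval 116 to 694) uninduced and 331 (59.2 to 13120) stimulated. edgeR called both (adjusted p = 8.21e-19 and 5.81e-15), whereas clone 1 gave -0.48 ± 0.17 uninduced (adjusted p = 0.0153) and -0.19 ± 0.18 stimulated. None of the 5 tested genes within 100 kb was called lower in clone 2, and Sephs1, the nearest of them, gave -0.13 and -0.18 in clone 2. Ucma was called higher in clone 2, at 2.97 uninduced and 4.12 stimulated, and also in clone 1 (2.86 and 7.03). Optn was called higher in both stimulated clones (1.55 in clone 1 and 1.61 in clone 2). Mcm10 and Gm13192 were not called.

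Ehhadh (ENSMUSG00000022853, chr16:21761287-21787807, minus strand) encodes the L-bifunctional enzyme, which hydrates and dehydrogenates chains in the peroxisome. It was at 0.582, 1.26 and 0.953 CPM in uninduced WT and at 0.440, 0.648 and 0.812 CPM in stimulated WT cells. Clone 1 gave 2.15, 2.04 and 2.33 CPM, then 1.28, 0.959 and 1.18 CPM. Clone 2 gave 2.01, 2.39 and 2.32 CPM, then 0.560, 0.327 and 0.842 CPM. In uninduced cells every library of both clones lay above every WT library, by 1.21 ± 0.37 on the log2 scale in clone 1 (adjusted p = 0.0069) and 1.24 ± 0.37 (adjusted p = 0.00497) in clone 2. The clone 1 value was 0.98 without uninduced WT replicate 1, below the fold threshold. Ehhadh lies on chromosome 16, whose 336 genes had a median of 0.12 in uninduced clone 1 and 0.39 in uninduced clone 2. In stimulated cells the differences from WT were 0.83 ± 0.40 (adjusted p = 0.0741) and -0.13 ± 0.45, neither called.

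The remaining peroxisomal enzymes and transporters differed by less. Scp2, a lipid carrier whose longer form is a thiolase, was higher in stimulated clone 1 (0.82 ± 0.04, adjusted p = 3.43e-16), at 411 ± 6.96 CPM against 234 ± 5.30 in WT (SD, n = 3), and lower in clone 2, by -0.12 ± 0.04 stimulated (adjusted p = 0.0202) and -0.43 ± 0.04 uninduced. Acaa1a, the peroxisomal thiolase, was higher in both stimulated clones by adjusted p alone (0.39 ± 0.07 and 0.35 ± 0.07), and so was Abcd3, a transporter of branched and dicarboxylic chains (0.36 ± 0.06 and 0.19 ± 0.06). Hsd17b4, the D-bifunctional enzyme, was higher in stimulated clone 1 (0.28 ± 0.06). Acox3, an oxidase of branched chains, was lower in both stimulated clones (-0.29 ± 0.11 and -0.72 ± 0.11) and in uninduced clone 2 (-0.58 ± 0.11). Abcd2, a transporter of very long chains, was higher in stimulated clone 2 (0.91 ± 0.31, adjusted p = 0.0138) at a mean of 3.42 CPM, and it lies on chromosome 15, whose 407 genes had a median of 0.43 in that comparison. Without stimulated WT replicate 1 its value was 1.01, past the fold threshold.

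No peroxin was called in either clone relative to WT, and their medians lay between 0.03 and 0.09 in the 4 comparisons. Pex5, the receptor for most matrix proteins, was lower in all 4 by adjusted p alone, from -0.44 ± 0.06 to -0.34 ± 0.06. Pex26, the membrane anchor of the Pex6 ATPase, was lower in all 4, from -0.81 ± 0.15 in uninduced clone 1 to -0.46 ± 0.16 in stimulated clone 1. Pex5 and Pex26 lie on chromosome 6, whose 482 genes had medians from -0.17 to -0.14 in the 4 comparisons. Pex14, a docking protein of the importer, was higher in all 4, from 0.30 ± 0.10 to 0.76 ± 0.09, with 28.3% of its exonic bases under exons of Gm17029 on the other strand. It lies on chromosome 4, whose medians went the other way, from -0.27 to -0.22. Pex19, the receptor for membrane proteins, was lower in all 4, from -0.25 ± 0.06 to -0.14 ± 0.06. Pex7, the receptor for the N-terminal import signal, was higher in clone 2 (0.71 ± 0.10 uninduced, 0.89 ± 0.10 stimulated), and Pex3, which anchors the membrane protein receptor Pex19, was higher in the same clone (0.56 ± 0.11 and 0.65 ± 0.11). Both lie on chromosome 10, where the median of 518 genes was 0.07 and 0.05 in clone 2 and -0.41 and -0.43 in clone 1. The only tested neighbour of Pex7 within 100 kb was also called higher in clone 2 (1.08 uninduced, 1.99 stimulated) and in stimulated clone 1 (1.30). Of 4 tested neighbours of Pex3, 2 were called higher and 1 lower in clone 2 in either treatment. Pex11a, which elongates and divides peroxisomes, gave -0.96 ± 0.30 (adjusted p = 0.00745) in stimulated clone 1, from means of 1.97 CPM in WT and 1.02 CPM in clone 1. It passed both thresholds without stimulated WT replicate 1 (-1.05) or stimulated clone 1 replicate 1 (-1.14).

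Stimulation changed the level of members in all 3 lines. In WT cells 5 of 43 members were called (3 higher, 2 lower), against 6.25% of all genes called higher and 13.6% lower. In clone 1 there were 7 (6 higher, 1 lower), against 5.95% and 10.7%, and in clone 2 there were 5 (4 higher, 1 lower), against 6.46% and 11.2%. Pdk4 rose in every line, by 2.76 ± 0.06 in WT, 5.27 ± 0.09 in clone 1 and 5.32 ± 0.07 in clone 2 on the log2 scale. Ucp2 rose by 3.68 ± 0.32, 4.25 ± 0.39 and 4.35 ± 0.44, and Cpt1a by 1.36 ± 0.06, 1.51 ± 0.06 and 2.09 ± 0.06, all 6 of them called. The 2 members called lower in WT were Phyh (-1.43 ± 0.17) and Acaa2 (-1.11 ± 0.05). Clone 1 added Acadm (1.48 ± 0.06), Scp2 (1.19 ± 0.04) and Ephx2 to the rises, with Phyh lower (-1.13 ± 0.18), a call that was lost without uninduced clone 1 replicate 3 (-0.99). Clone 2 added Abcd2 (1.21 ± 0.31), with Ehhadh lower (-1.93 ± 0.40). By adjusted p alone, 10 members were higher and 15 lower in WT (median -0.12) against 28.8% and 31.9% of all genes. In clone 1, 20 were higher and 10 lower (median 0.17) against 25.9% and 28.6%, and in clone 2, 19 were higher and 12 lower (median 0.14) against 26.7% and 29.1%.

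The difference between a clone's response and that of WT was tested as an interaction. In clone 1, 3 members responded more strongly on the log2 scale or in the other direction (Pdk4, Acadm and Cat). There 0 were called below the WT response, against 5.34% of all genes above and 3.46% below. In clone 2, 1 member was called above (Pdk4) and 0 below, against 4.89% and 2.96%. Ehhadh was added below the WT response without stimulated clone 2 replicate 3 (-1.74) or without uninduced WT replicate 2 (-1.63). By adjusted p alone the members leaned in 1 direction. In clone 1, 18 of 43 (41.9%) had a response above that of WT and 0 below it, against 15.9% above and 15.7% below of all genes. In clone 2, 19 (44.2%) were above and 1 below, against 15.9% and 15.3%. The median difference over the 43 members was 0.26 in clone 1 and 0.23 in clone 2, beside -0.01 over all tested genes in each. The members were chosen with earlier results of these data known, so the lean is a description only. Of 15 tested genes of other mitochondrial oxidation and ketone metabolism, 3 were above and 1 below in clone 1, and 3 and 2 in clone 2. Of 26 other peroxisome genes, 8 were above and 0 below in clone 1, and 7 and 1 in clone 2. Both differences subtract the same WT response. A log2 response also depends on the uninduced level. The member median relative to WT was -0.27 uninduced and -0.12 stimulated in clone 2, and -0.08 and 0.25 in clone 1.

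The members above the WT response were found in mitochondria and peroxisome, but less often among peroxisomal genes. By adjusted p, in each clone, they were 3 of 4 carnitine shuttle genes, 2 of 4 dehydrogenases and 3 of 5 in the later spiral. So were 2 of 3 auxiliary and 1 of 3 electron transfer genes. Of 12 peroxins, 2 were above in clone 1 and 3 in clone 2 (medians 0.08 and 0.07). Of 6 peroxisomal oxidation enzymes, 2 were above in each clone (medians 0.21 and -0.09). Pdk4 differed by 2.51 ± 0.11 in clone 1 and 2.56 ± 0.09 in clone 2. Its larger log2 rise in the clones started from lower uninduced levels and ended below stimulated WT. Acadm differed by 1.85 ± 0.09 and 0.65 ± 0.09, and Cat by 1.02 ± 0.06 and 0.20 ± 0.06, the clone 1 value of Cat lying just past the fold threshold and at 0.996 without uninduced WT replicate 2. Of the shuttle genes, Cpt2 (0.71 ± 0.09 and 0.56 ± 0.10) and Slc25a20 (0.57 ± 0.12 and 0.64 ± 0.12) went down in WT and up in both clones. Cpt1a differed in clone 2 (0.73 ± 0.08, adjusted p = 2.28e-08) and gave 0.15 ± 0.08 (adjusted p = 0.186) in clone 1. Scp2 (0.89 ± 0.06 and 0.31 ± 0.06), Acaa2 (0.64 ± 0.07 and 0.51 ± 0.07), Acadl (0.65 ± 0.10 and 0.54 ± 0.10), Decr1 (0.46 ± 0.10 and 0.57 ± 0.10), Etfa (0.43 ± 0.08 and 0.32 ± 0.08) and Pex13, of the import machinery (0.58 ± 0.12 and 0.59 ± 0.12), passed on adjusted p in both clones. Hadh was the only member to pass on adjusted p below the WT response, in clone 2 (-0.24 ± 0.09, adjusted p = 0.0313), and it was above it in clone 1 (0.26 ± 0.09). In clone 2, 10 members had a value below 0, the lowest being Ehhadh (-1.38), which did not pass in the main run. The response of Ucp2 differed from WT by 0.57 ± 0.57 and 0.67 ± 0.63, so that its rise was not shown to differ between lines.

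**Figure D5:**
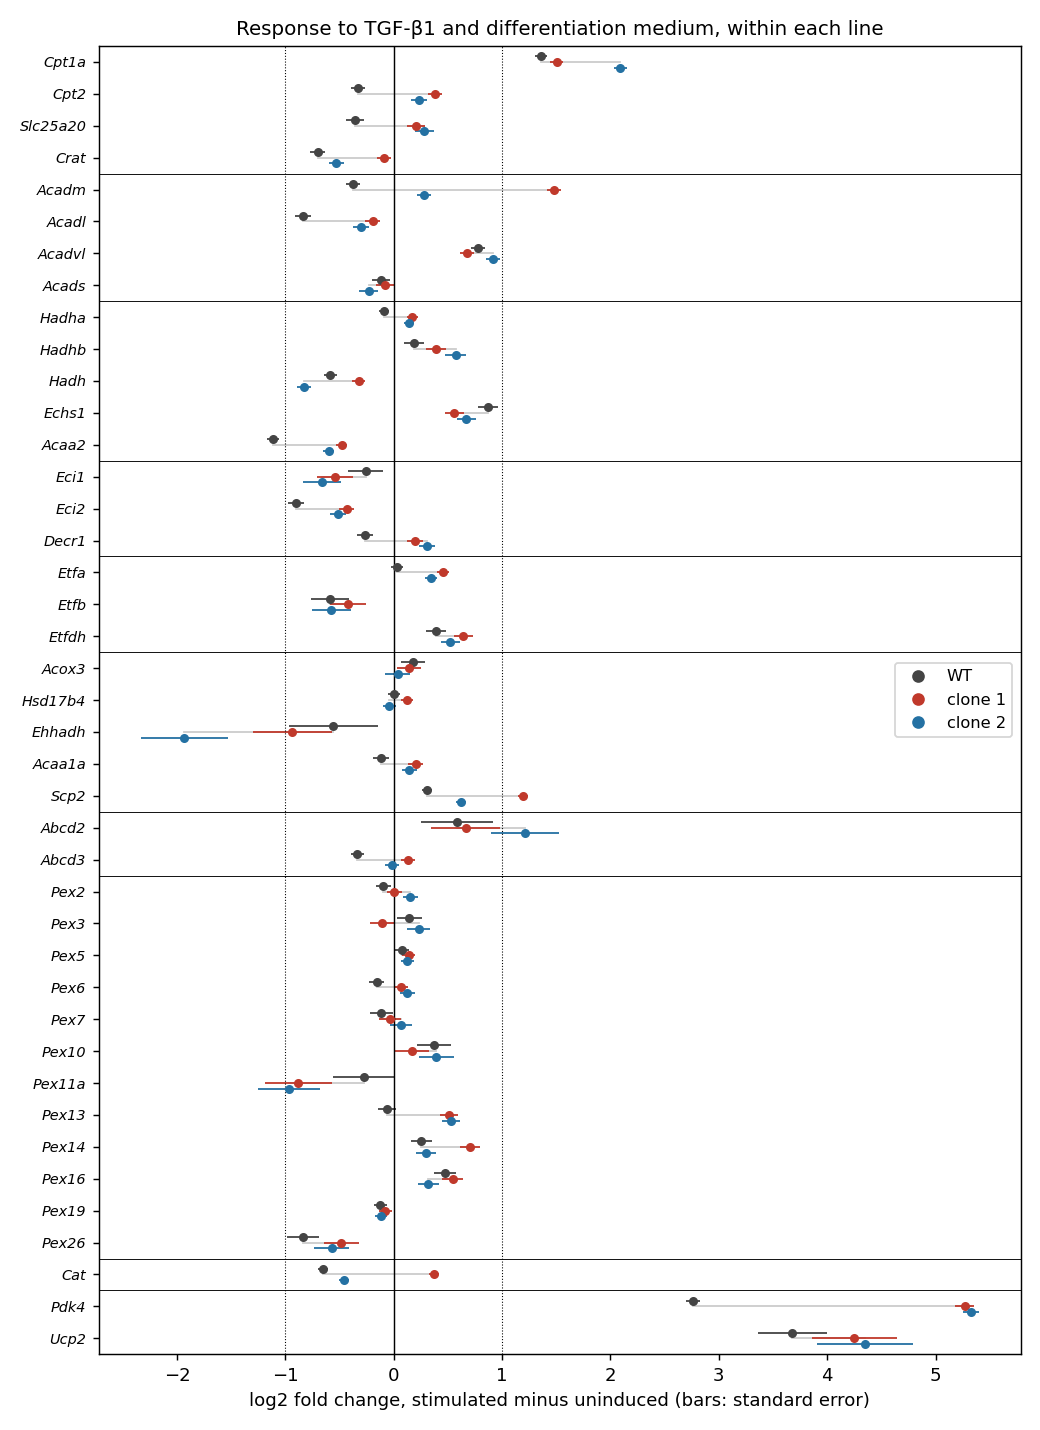
Log2 fold change from uninduced to stimulated cells of 41 of the 43 genes (Phyh and Ephx2 are left out for their near-empty groups) in WT (grey), clone 1 (red) and clone 2 (blue), with bars for the standard error, dotted lines at -1 and 1, and horizontal lines between roles. The WT point lies left of both clone points for most mitochondrial genes. Pdk4 moves furthest in the clones, at 5.27 and 5.32, and Ucp2 in WT, at 3.68.

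Clones 1 and 2 were compared directly as well. In uninduced cells 3 members were called (Phyh and Ephx2 higher in clone 1, Pdk4 lower), against 4.89% of all genes called higher and 3.78% lower. The Ephx2 call rested on uninduced clone 1 replicate 3 and was also lost without uninduced clone 2 replicate 1 (adjusted p = 0.0809). In stimulated cells 5 were called (Acadm, Cat, Phyh and Ephx2 higher in clone 1, Pdk4 lower), against 5.50% and 4.48%. By adjusted p alone clone 1 mostly lay above clone 2, with 20 members higher and 5 lower uninduced (21.0% and 21.2% of all genes) and 21 higher and 4 lower stimulated (22.2% and 23.2%), at medians of 0.19 and 0.17. Differences short of the fold threshold included those of Slc25a20 (0.97 ± 0.09 uninduced, 0.90 ± 0.09 stimulated), Crat (0.54 ± 0.06 and 0.97 ± 0.07), Scp2 (0.36 ± 0.04 and 0.94 ± 0.04) and Ucp2 in stimulated cells (0.91 ± 0.28).

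The wider pathway was read from 67 other genes, of which 62 passed the filter. Of 7 tested transcriptional regulators, 4 were called higher in stimulated clone 1 and 3 in stimulated clone 2, and none lower, beside 9.42% and 7.95% of all tested genes called higher and 9.60% and 8.94% lower, which are the shares for each list that follows. Pparg, the adipogenic PPAR, was at 4.18 ± 0.365 CPM in stimulated WT, 35.0 ± 1.49 in clone 1 and 20.1 ± 2.41 in clone 2 (log2 fold changes 3.07 ± 0.11 and 2.26 ± 0.11), and it had been at 37.2 to 49.5 CPM in the 3 uninduced groups. Rxra, its partner in DNA binding, was higher in both stimulated clones as well (2.09 ± 0.05 and 1.66 ± 0.05). Ppargc1a, a coactivator of mitochondrial genes named here after its values were seen, was higher in both uninduced clones, at 7.36 ± 0.972 and 6.04 ± 0.464 CPM against 0.260 ± 0.0842 in WT (SD, n = 3; log2 fold changes 4.74 ± 0.36 and 4.46 ± 0.36). In stimulated cells it was down to 28 counts in clone 1, which was called higher, 3 in clone 2 and 0 in WT. Of 9 tested genes of fatty acid uptake and activation, 3 were called higher and 1 lower in stimulated clone 1, and 2 each in clone 2. Fabp4, which binds fatty acids in adipocytes and is also on the adipocyte list, was higher (4.99 ± 0.33 and 2.30 ± 0.37), and Slc27a1, a fatty acid transport protein, was lower, at 10.5 ± 0.209 CPM in stimulated WT against 0.389 and 0.217 in the clones.

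In the other lists a few genes were without counts in the clones. Of 26 other peroxisome genes, 2 were called higher and 1 lower in stimulated clone 1, and 0 and 3 in clone 2, with Nudt7, a peroxisomal hydrolase of CoA esters, at 181 counts in stimulated WT cells and 0 in either stimulated clone. Of 15 tested genes of other mitochondrial oxidation and ketone metabolism, 3 were called lower and 0 higher in stimulated clone 1, and 1 each way in clone 2, with Bdh1, which makes the ketone body hydroxybutyrate, at 85 counts in stimulated WT and 0 in either clone. Of the 5 other kinases and phosphatases of the pyruvate dehydrogenase complex, none was called in either stimulated clone, where Pdk4 was lower.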

How the data were processed

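Poly(A) RNA libraries of the 18 samples were sequenced as 150-base pairs and mapped with HISAT2 to mm10 (GRCm38), per the submitters' processing notes and the study's methods. The authors deposited raw counts per gene, not normalized, with a gene length in bases. The counting program, annotation release and strandedness were not given in the sources used here. Multi-mapped reads and overlapping genes may therefore be counted differently from what the gene models imply.

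From these counts, genes were kept by filterByExpr (minimum count 10), scaled by TMM and fitted with edgeR 4.0.16 (robust quasi-likelihood, R 4.3.3) in 1 model of 6 groups, with Benjamini-Hochberg adjustment over 14317 genes. Count ratios carry exact binomial intervals, which cover counting error only, as reads without molecular identifiers are not independent molecules. A group count of 3, used as a floor, corresponds to 0.0354 to 0.0603 CPM. Replicate libraries differed by more than sampling noise (chi-square per degree of freedom 3.13 to 14.7), so each counted as 1. On simulated counts of 13810 genes, the fit recovered 99% of 200 changed genes for stimulated clone 1 against WT, with 3 false calls. For the difference in response of clone 1 it recovered 94.5% of 200, with 4 false calls. All 200 changed genes were given the same size of change, past the fold threshold, and lay above a minimum expected count. They were a smaller share of genes than those called in the data. Recovery of genes near or below the fold threshold, or at low counts, was therefore not tested. Alternatives were DESeq2 1.42.0, its size factors, other filters, a test against the fold threshold, no fold threshold, a replicate block and leaving out each library.

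The members and lists were chosen with earlier results of these data known. Values in every library are given for members called in a clone against WT or in a difference of response, with a mean of at least 1 CPM in 1 group. Other genes of the pathway are named where called in the same direction in both stimulated clones, at most 6 of them. Sequences are RefSeq on GRCm38.p6, with 35 members matched.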

Additional observations from a re-analysis of the deposited data

Results flagged for a closer look

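The response to stimulation differed between lines by the interaction test for Pdk4, Acadm and Cat. For Pdk4 the clone response exceeded that of WT by 2.51 on the log2 scale in clone 1 and by 2.56 in clone 2. Both clones started from uninduced levels below WT, and their stimulated levels stayed below stimulated WT. For Acadm the clone 1 response exceeded that of WT by 1.85, with a rise in clone 1 and a fall in WT. For Cat the clone 1 response exceeded that of WT by 1.02, again with a rise in clone 1 and a fall in WT.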

How the results depend on the processing

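No call changed direction under any alternative run. Without a fold threshold, the count of members called became 21 and 30 in uninduced clones 1 and 2 against WT, 31 and 28 in the stimulated clones, 25, 30 and 31 for the responses of WT, clone 1 and clone 2, 18 and 20 for the differences in response of clones 1 and 2, and 25 in either comparison of the clones. Tested against the fold threshold (glmTreat), uninduced clone 1 kept 1 call of 3. The difference in response of clone 2 gave 2 calls in place of 1 with DESeq2 and ranged from 1 to 2 when single libraries were left out, Ehhadh being added with DESeq2 (-1.37) and without stimulated clone 2 replicate 3 or uninduced WT replicate 2. Of the calls for single members, Cat in the difference of response of clone 1 fell to 0.998 with no filter beyond 1 count, Ucp2 in uninduced clone 1 had an adjusted p of 0.0529 under the same filter, the response of Ephx2 in clone 1 had an adjusted p of 0.0561 with DESeq2, and Ephx2 between the uninduced clones had an adjusted p of 0.0809 without uninduced clone 2 replicate 1. Calls for single members were lost 11 times in runs other than leaving out a library, where they held 338 times. In the leave-one-out runs they were lost 6 times and held 282 times. Not every lost call is named here. The causes of these changes were not tested. DESeq2's size factors moved the median of all genes by at most 0.0147. Ephx2, Ehhadh and uninduced Ucp2 are limited by depth, with under 200 counts in nearly every group.

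The labels number the replicates 1 to 3 in every group. Deviations of same-numbered libraries correlated at -0.041 to 0.050 over 45 pairs, with 0 above 0.1. Of 18 libraries, 4 correlated best with their own number, so no pairing by number was seen in these deviations. The labels do not say whether same-numbered libraries shared a culture or a batch. With the replicate number as a block, the counts of members called were 3 and 6 in the uninduced clones, 4 and 2 in the stimulated clones, 5, 7 and 5 for the responses, 3 and 1 for their differences, and 3 and 5 between the clones, the same as without it.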
